A study of Mus musculus with 6 samples.

Results

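The 10 genes described here are parts of the circadian clock and its first outputs: Clock, Per2, Per3, Cry1, Cry2, Nr1d1, Nr1d2, Dbp, Tef and Ciart. They were chosen by symbol, and all 10 were found among the 55416 genes of the count table and passed the filter on low counts. RNA was sequenced from the tibialis anterior (TA) muscle of 24-month-old mice raised by natural aging, 3 wild-type (WT) and 3 SELENOW knockout (KO). The aged animals were males on a C57BL/6N background, and the KO line lacks exon 4 of the selenoprotein W gene in the whole animal, with no tissue-specific Cre. They were housed under a light/dark cycle and could feed freely. The hour at which muscles were collected and the feeding state at collection are not given in the sources used here.

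In nearly every mammalian cell the clock is a loop of transcription. CLOCK and its partner BMAL1, encoded by Arntl, bind E-box sequences and switch on the Per, Cry, Nr1d, Dbp, Tef and Ciart genes. PER and CRY proteins then return to the nucleus and block CLOCK and BMAL1, while the nuclear receptors REV-ERBα and REV-ERBβ, the products of Nr1d1 and Nr1d2, repress Arntl and Nfil3. DBP and TEF carry the rhythm to further genes through D-box sequences. In skeletal muscle this clock is known for timing glucose and fat use over the day.

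The motifs through which these genes are wired were searched for in RefSeq promoters of GRCm38.p6, from 250 bases before to 50 bases after each start site, on both strands. Promoters were listed for 9 of the 10 genes (12 windows), and Per2 had none. The E-box CACGTG was found in 3 of the 9 genes (4 of their 12 windows) and in 7.15% of all 32851 promoter windows. The variant CACGTT was found in 3 of the 9 genes (3 of the 12 windows) and in 4.68% of all windows. The D-box, searched as TTATGTAA and TTACGTAA, was in 1 of the 9 genes (1 of the 12 windows) and in 1.06% of all windows. The element bound by REV-ERB and ROR receptors, searched as TAGGTCA and TGGGTCA, was in none of the 12 windows of the 9 genes and in 6.45% of all windows. These windows are short, and a match describes letters, not binding. The stretches below are shown as examples of each motif found, with Ciart, Cry1 and Per3 holding more than 1 match. Each is read 5′ to 3′ on the gene's strand and lies before the RefSeq start site, with motif letters in capitals (the variant reads AACGTG where it lies on the other strand).
Ciart, E-boxes starting 116, 58 and 44 bases before the start site, chr3:95882237-95882374, minus strand: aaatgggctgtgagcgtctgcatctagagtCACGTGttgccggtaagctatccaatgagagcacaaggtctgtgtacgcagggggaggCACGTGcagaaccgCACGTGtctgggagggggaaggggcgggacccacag
Cry1, the variant at 79 and the E-box at 60 bases, chr10:85185079-85185163, minus strand: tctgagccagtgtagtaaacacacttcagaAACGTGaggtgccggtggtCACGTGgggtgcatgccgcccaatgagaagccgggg
Per3, D-boxes at 205 and 158 bases, chr4:151044786-151044900, minus strand: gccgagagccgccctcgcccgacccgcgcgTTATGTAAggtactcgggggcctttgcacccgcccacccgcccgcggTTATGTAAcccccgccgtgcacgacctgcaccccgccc
Nr1d1, the variant at 28 bases, chr11:98775378-98775435, minus strand: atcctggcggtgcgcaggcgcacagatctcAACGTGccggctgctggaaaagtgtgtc
No match printed here shares bases with another. The promoter of Ciart thus held 3 E-boxes, that of Per3 a pair of D-boxes and no E-box, and those of Dbp, Nr1d2 and Clock none of the searched motifs in these windows.

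The 6 libraries held 25351976 to 29111213 counts, and mitochondrially encoded genes took 29.1% to 37.3% of them in WT and 35.4% to 40.3% in KO. Selenow, the targeted gene, had a CPM (the count scaled to library size, with TMM factors) of 268, 245 and 219 in WT replicates 1, 2 and 3 and of 193, 212 and 210 in KO replicates 1, 2 and 3. The KO libraries were all below the WT libraries, and counts per gene do not show the loss of the deleted exon. The 10 skeletal muscle fiber markers summed to a CPM of 88785 to 113240 over the libraries. The 10 leukocyte markers summed to a CPM of 34.4, 22.4 and 81.1 in WT replicates 1, 2 and 3 and to 20.8 to 31.9 in KO. The 4 smooth muscle and pericyte markers summed to 141 to 180 in WT and 206 to 273 in KO. Most of this sum was Rgs5, with 3706 to 5798 raw counts a library against 134 to 418 for the other markers. Of the 4, 3 were higher in KO and 1 lower. Myh11 and Rgs5 were higher by over 1.5-fold with an unadjusted p under 0.05 (log2 fold changes of 0.83 and 0.61, edgeR), and Acta2 and Pdgfrb did not pass. Of the 9 leukocyte markers tested, 7 were lower in KO and 2 higher, at a median log2 fold change of -0.95. Csf1r passed as lower, at under 0.7-fold and the same p limit, and Cd3e as higher, at log2 fold changes of -0.69 and 1.16. Of all 15623 genes tested, 5.35% passed these limits in either direction. The epidermal keratins Krt5 and Krt14 had 0 counts in all libraries. Clock genes are expressed in all of these cell types, and the part of cell composition in the values below was not tested. In bulk muscle, fewer cells of a type and less RNA per cell cannot be told apart.

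None of the 10 clock genes passed the thresholds for a differentially expressed gene (DEG), an unadjusted p under 0.05 with a fold change over 1.5 or under 0.7 in edgeR's quasi-likelihood test. Of all 15623 genes tested, 5.35% passed. With DESeq2 the count among the 10 was also 0, and 1 of them, Per3, had an unadjusted p under 0.05 in edgeR's test, against 9.89% of all genes. Fold changes of KO over WT ran from 0.949 for Clock to 1.46 for Per3, with 7 of the 10 above and 3 below equality and a median log2 fold change of 0.13, against -0.0042 over all genes. Adjusted p over all tested genes ranged from 0.346 to 0.991. The 95% intervals of the fold change lay within 0.7 to 1.5 for 7 of the 10 genes, the exceptions being Per2, Per3 and Ciart, and all 10 lay within 0.5 to 2. The raw counts behind these values ranged from 70 for Ciart to 4237 for Tef. In 1 of the 10, Nr1d2, the libraries of the genotypes did not overlap, as in 15.4% of all genes. Nr1d2 was higher in KO, where 7.53% of all genes had KO libraries all above WT, and 7.87% had them all below.

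**Figure D1:**
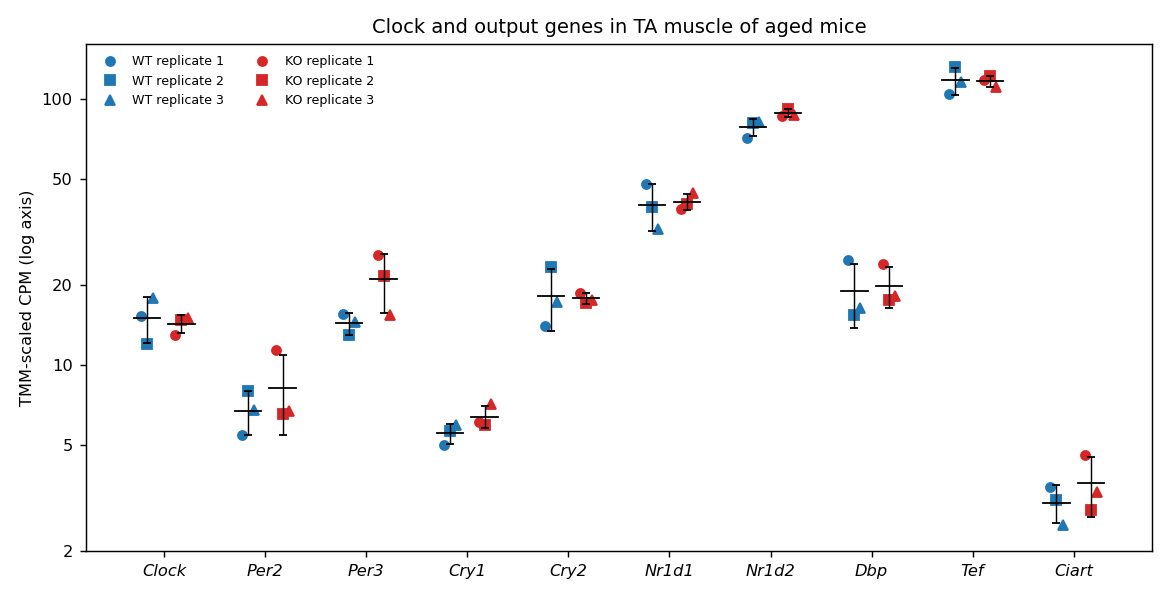
TMM-scaled CPM of the 10 clock and output genes on a log axis, with 1 symbol per library (WT blue, KO red, symbol shape by replicate), the mean as a line and the SD as a bar (n = 3). The WT and KO libraries overlap for every gene but Nr1d2, and Per3 has its 2 highest values in KO replicates 1 and 2.

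**Figure D2:**
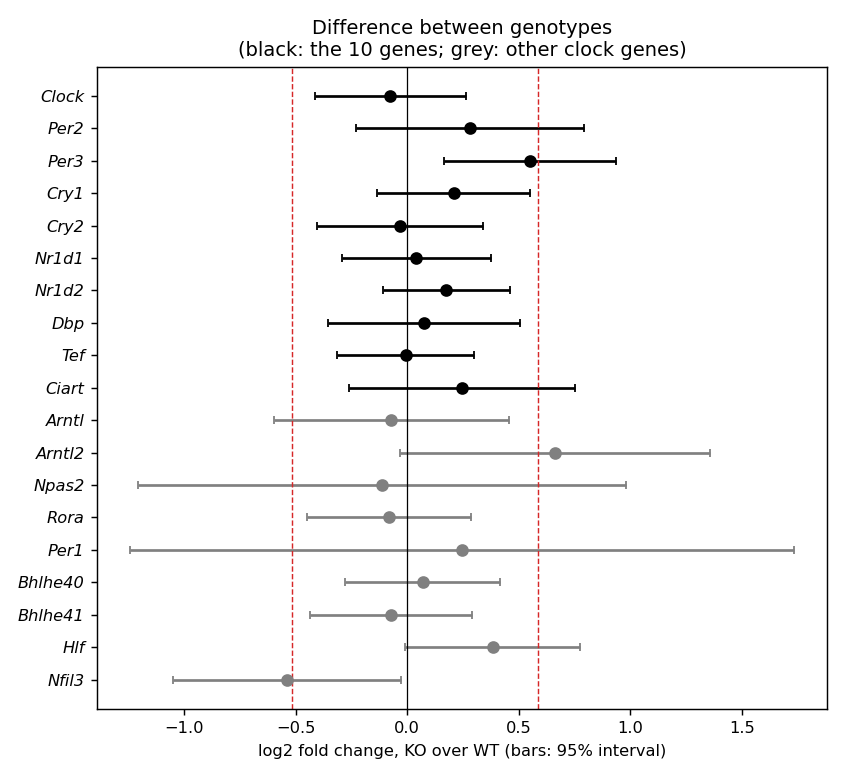
log2 fold change of KO over WT with its 95% interval from edgeR, for the 10 genes (black) and 9 other clock genes (grey). Dashed lines mark fold changes of 0.7 and 1.5, and Nfil3 is the gene of these lists that passed the DEG thresholds.

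Levels of different genes were compared per kilobase of counted length. Nr1d2 had the highest level at a CPM per kilobase of 15.4 averaged over the 6 libraries, followed by Tef at 14.9 and Nr1d1 at 13.1. The ranges of these 3 genes over the libraries overlapped, so their order is not resolved. Dbp followed at 6.47, below Nr1d1 and above Cry2 in all 6 libraries with no overlap of ranges. Cry2 was at 2.84, Per3 at 1.84, Cry1 at 1.78, Ciart at 1.47, Per2 at 1.28 and Clock at 1.07, and each of these overlapped the next in range. Cry2 was above Per3 in all 6 libraries, and Per3 was above Cry1 in 3 of the 6. The span from Nr1d2 to Clock was 14.4-fold.

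**Figure D3:**
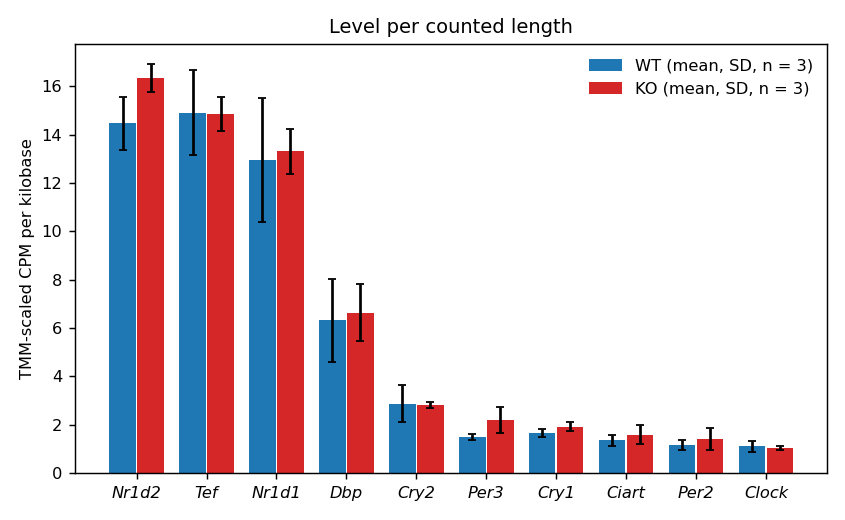
Mean TMM-scaled CPM per kilobase of counted gene length in WT (blue) and KO (red), with the SD over 3 libraries, in order of the mean over all 6. Nr1d2, Tef and Nr1d1 stand at 13.1 to 15.4, Dbp at 6.47 and the other 6 genes at 1.07 to 2.84.

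Clock encodes the activator that pairs with BMAL1. The gene (ENSMUSG00000029238, chromosome 5 from 76209868 to 76304792 in GRCm38, minus strand) had a CPM of 15.2, 12.0 and 17.9 in WT replicates 1, 2 and 3 and of 13.01, 14.8 and 15.0 in KO replicates 1, 2 and 3. The KO values lay inside the WT range. The fold change was 0.949 with a 95% interval of 0.750 to 1.20 (edgeR's quasi-likelihood test, adjusted p = 0.904).

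Per2 and Per3 encode PERIOD proteins, of which PER2 is a repressor of the loop and PER3 is not required for it. Per3 (ENSMUSG00000028957, chromosome 4 from 151003652 to 151044665, minus strand) had a CPM of 15.5, 12.9 and 14.5 in WT and of 25.9, 21.6 and 15.4 in KO. KO replicates 1 and 2 were above every WT library, and KO replicate 3 lay just below WT replicate 1. The log2 fold change was 0.55 (standard error 0.18), a fold change of 1.46 with a 95% interval of 1.12 to 1.91 (edgeR's quasi-likelihood test, unadjusted p = 0.00889, adjusted p = 0.346). An exact permutation test over the libraries gave p = 0.2, two-sided, where 0.1 is the smallest p that 3 against 3 allow. Per3 was thus the closest of the 10 to the DEG thresholds, missing the fold change of 1.5. Without WT replicate 1 or without KO replicate 3 it passed them, with log2 fold changes of 0.61 and 0.73, and without KO replicate 1 the value was 0.38 (edgeR's test, unadjusted p = 0.0512).

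Per2 (ENSMUSG00000055866, chromosome 1 from 91415982 to 91459324, minus strand) had a CPM of 5.44, 8.0 and 6.75 in WT and of 11.4, 6.56 and 6.70 in KO. KO replicate 1 was the highest library and the other KO libraries lay within the WT range. The fold change was 1.22 with a 95% interval of 0.853 to 1.73 (edgeR, adjusted p = 0.719), and without KO replicate 1 the log2 fold change was -0.020.

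Cry1 and Cry2 encode cryptochromes, the strongest repressors of CLOCK and BMAL1. Cry1 (ENSMUSG00000020038, chromosome 10 from 85131700 to 85185064, minus strand) had a CPM of 4.99, 5.63 and 5.96 in WT and of 6.12, 5.95 and 7.11 in KO, and the genotypes overlapped by 1 library, KO replicate 2 against WT replicate 3. The fold change was 1.16 with a 95% interval of 0.911 to 1.47. Cry2 (ENSMUSG00000068742, chromosome 2 from 92403646 to 92434043, minus strand) had a CPM of 14.0, 23.3 and 17.2 in WT and of 18.7, 17.1 and 17.6 in KO. The 3 KO libraries of Cry2 were close together and lay within the wide WT range, at a fold change of 0.978 with a 95% interval of 0.756 to 1.26.

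Ciart, also called Chrono, encodes another repressor of CLOCK and BMAL1 and was the gene with the lowest counts. It (ENSMUSG00000038550, chromosome 3 from 95878503 to 95882251, minus strand) had a CPM of 3.49, 3.11 and 2.50 in WT and of 4.59, 2.85 and 3.33 in KO. As with Per2, the highest value was in KO replicate 1 and the others were intermixed. The fold change was 1.19 with a 95% interval of 0.834 to 1.69, and without KO replicate 1 the log2 fold change went from 0.25 to 0.035.

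Nr1d1 and Nr1d2 encode the REV-ERB receptors, repressors that respond to heme. Nr1d1 (ENSMUSG00000020889, chromosome 11 from 98767932 to 98775333, minus strand) had a CPM of 48.0, 39.2 and 32.3 in WT and of 38.5, 40.2 and 44.1 in KO, and the KO values lay inside the WT range. The fold change was 1.03 with a 95% interval of 0.817 to 1.30. Nr1d2 (ENSMUSG00000021775, chromosome 14 from 18204054 to 18239127 in GRCm38) had a CPM of 71.5, 81.4 and 81.9 in WT and of 86.2, 91.9 and 87.2 in KO. Each KO library was above each WT library, by a small margin. The fold change of Nr1d2 was 1.13 with a 95% interval of 0.928 to 1.37 (edgeR, adjusted p = 0.688), and the exact permutation test over the libraries gave its smallest possible p of 0.1.

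Dbp and Tef encode activators of the PAR bZIP family that bind D-boxes. Dbp (ENSMUSG00000059824, chromosome 7 from 45705088 to 45710203, plus strand) had a CPM of 24.8, 15.4 and 16.4 in WT and of 23.9, 17.5 and 18.2 in KO. In each genotype replicate 1 stood above the other libraries. Over all tested genes, deviations from the genotype mean correlated at 0.060, 0.044 and -0.074 between same-numbered libraries, against -0.14 to 0.093 for other pairs. Whether libraries of one number share a batch was not tested. The fold change was 1.05 with a 95% interval of 0.781 to 1.42. Tef (ENSMUSG00000022389, chromosome 15 from 81802421 to 81826863, plus strand), the gene with the most reads, had a CPM of 104, 132 and 116 in WT and of 118, 122 and 111 in KO. The fold change of Tef was 0.995 with a 95% interval of 0.805 to 1.23, the closest to equality of the 10.

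Exons of 4 of the 10 genes overlap exons of a gene on the other strand in the positions of the count table. The overlap came to 18.0% of the counted length of Dbp, shared with Sphk2, and 8.55% of that of Nr1d1, shared with Thra, which encodes a thyroid hormone receptor. It was 4.67% for Cry2 and 2.45% for Tef. How strand was handled in counting is not given, so reads in these stretches cannot be assigned to a strand. Sphk2 had a CPM of 14.0, 9.93 and 10.4 in WT and of 12.5, 10.2 and 11.1 in KO, the order of libraries being close to that of Dbp. The highest library was WT replicate 1 for Sphk2 and for Dbp alike, and the part of shared reads was not tested.

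The spread between mice of a genotype was described by the SD of log2 CPM over 3 libraries. Its median over the 10 genes was 0.26 in WT and 0.12 in KO, against 0.22 and 0.21 over all tested genes. The 10 genes were not compared with genes of similar expression. In WT 6 of the 10 genes had an SD above the median of all genes, and in KO 4 did. The most even were Nr1d2 and Cry2 in KO, with highest-to-lowest ratios of 1.07 and 1.09, and the widest were Per2 and Per3 in KO, at 1.73 and 1.67. In KO the SD was below the median of all genes for the REV-ERB genes, Clock, Cry1, Cry2 and Tef. It was above that median for Per2, Per3, Ciart and Dbp, at 0.45, 0.38, 0.35 and 0.25.

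Each of the 6 libraries was the highest for 1 to 3 of the 10 genes. The 3 were in KO replicate 1, and WT replicates 1 and 2 had 2 each. KO replicate 1 was the highest library for Per2, Per3 and Ciart, at 0.77, 0.86 and 0.60 above the WT mean on the log2 CPM scale, and Dbp stood at 0.37 there. The rest of the 10 genes stood nearer the WT mean in that library, from -0.19 for Clock to 0.15 for Cry1. In that library Arntl, at -0.63, Npas2, which encodes a substitute for CLOCK, at -0.74 from 6 counts, and Nfil3, at -1.10, had their lowest values of the 6. In KO replicate 3 the same genes lay at 0.010 for Per2, 0.11 for Per3, 0.15 for Ciart and 0.41 for Arntl, the highest Arntl value, while Npas2 and Nfil3 stayed below the WT mean at -0.47 and -0.14. WT replicate 1 was the lowest library for 5 of the 10 genes and the highest for Dbp and Nr1d1. These are descriptions of single animals, and no test was made of them.

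**Figure D4:**
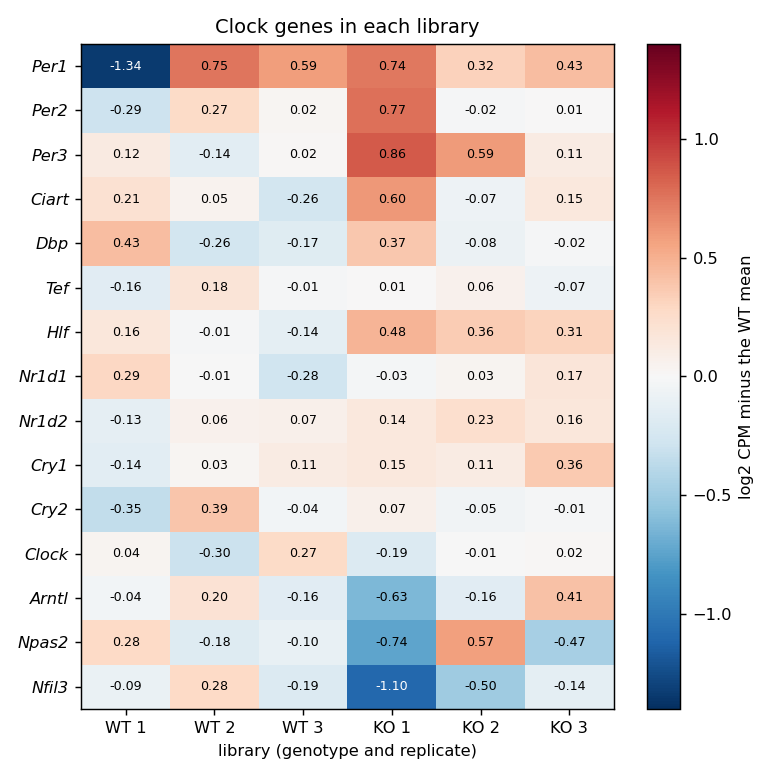
log2 TMM-scaled CPM of 15 clock genes in each of the 6 libraries (columns) minus the mean of the 3 WT libraries, in color and in digits. In KO replicate 1, Per2 and Per3 stand at 0.77 and 0.86 and Arntl and Nfil3 at -0.63 and -1.10, and Per1 stands at -1.34 in WT replicate 1. Nr1d1, Tef and Cry2 stand at -0.028, 0.011 and 0.071 in KO replicate 1.

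A ratio of the counts of 2 genes within a library does not depend on how libraries are scaled. The log2 ratio of Per3 to Clock was 0.030, 0.10 and -0.30 in WT and 0.99, 0.55 and 0.043 in KO, so that KO replicate 3 lay among the WT libraries. For Nr1d1 over Clock it was 1.41 ± 0.479 in WT and 1.52 ± 0.0663 in KO, and for Dbp over Clock 0.31 ± 0.418 and 0.47 ± 0.357 (SD, n = 3 each). Per2 over Cry1 gave 0.27 ± 0.206 and 0.32 ± 0.512. The genotypes overlapped in all 8 ratios computed, which also included Nr1d2, Tef and Ciart over Clock and Per3 over Cry1.

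The genes whose pattern over the 6 libraries was nearest to a clock gene were sought among 12348 other protein-coding genes, by the root mean square difference of log2 CPM after centering each gene on its mean. For Per3 they were Gss, which encodes glutathione synthetase, at 0.0521, Dixdc1 at 0.0783 and Plpp6 at 0.0943, where Per3 itself spanned 0.999 between libraries. For Dbp they were Kctd10, Myo1h and Slc19a2 at 0.0807 to 0.0947, for Nr1d1 Mrpl2, Rdh5 and Aes at 0.0407 to 0.0464, and for Clock Pon3, 2510009E07Rik and Zfp251 at 0.0407 to 0.0467. Dbp, Nr1d1 and Clock themselves spanned 0.684, 0.571 and 0.572 between libraries. No other clock gene of the lists was among these neighbors. Only the 3 nearest of 12348 genes were kept for each, so no conclusion about shared patterns is drawn from it. With so many genes searched over 6 libraries, close matches can arise by chance.

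The remaining activators and repressors of the loop were examined next, by lists chosen with earlier results of these data known. Arntl, which encodes BMAL1, had a CPM of 6.90, 8.12 and 6.32 in WT and of 4.55, 6.32 and 9.43 in KO, a fold change of 0.952 with a 95% interval of 0.661 to 1.37. The KO libraries of Arntl thus spread over a ratio of 2.07 around the WT values. Npas2 was low, at a CPM of 0.242 to 0.652 from 6 to 16 counts a library, and Rorb, with 2 to 8 counts a library, was not tested. Arntl2 ran from 0.771 to 0.965 in WT and from 1.09 to 1.79 in KO with no overlap in CPM (edgeR, adjusted p = 0.531), as in 15.4% of all genes. Its raw counts were low and did overlap, at 19 to 31 in WT and 27 to 44 in KO. The mean CPM of Rora, which encodes a receptor that activates Arntl, was 70.2 ± 16.6 for WT and 66.4 ± 3.08 for KO (SD, n = 3 each).

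Nfil3, a repressor that competes at D-boxes, was the 1 gene of these 2 lists that passed the DEG thresholds. It fell from a CPM of 6.61, 8.53 and 6.16 in WT to 3.26, 4.97 and 6.40 in KO, a log2 fold change of -0.54 (standard error 0.23, unadjusted p = 0.0400, adjusted p = 0.488, edgeR's quasi-likelihood test). KO replicate 3 lay within the WT range, and over all genes 3.14% passed as lower in KO. The call was lost without WT replicate 2 or KO replicate 1, where the log2 fold change shrank to -0.38 and -0.32. It was also lost without WT replicate 1 or KO replicate 2. There the log2 fold change did not shrink, at -0.59 and -0.55, and the unadjusted p was 0.0637 and 0.0757 (edgeR's test).

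Per1, a repressor that also responds to glucocorticoids, had a CPM of 6.69 in WT replicate 1 and of 28.7 and 25.7 in WT replicates 2 and 3, against 28.5, 21.3 and 23.0 in KO. The low WT library set a highest-to-lowest ratio of 4.29 in WT, against 1.34 in KO, and the 95% interval of the fold change was 0.423 to 3.33. The 17 other glucocorticoid and fasting genes on a fixed list had a mean of -0.35 in WT replicate 1 relative to the WT mean on the log2 CPM scale, 0.44 in WT replicate 2 and -0.092 in WT replicate 3, and -0.086, -0.40 and -0.27 in the KO libraries. Their part in the Per1 values was not tested. Hlf, the PAR bZIP relative of Dbp and Tef, had a CPM of 3.89, 3.46 and 3.16 in WT and of 4.87, 4.48 and 4.34 in KO, with no overlap, at a fold change of 1.31 and a 95% interval of 0.994 to 1.71. Bhlhe40 and Bhlhe41, repressors that bind E-boxes, had fold changes of 1.05 and 0.951.

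Modifiers of clock proteins gave no DEG among 22 tested, which include the casein kinases that mark PER for decay and the ligases that remove PER and CRY. Their log2 fold changes ran from -0.26 to 0.22. Output genes that cycle in many tissues gave no DEG among 18 tested, at a median of -0.022. With 5.35% of all genes called, counts of 0 in lists of this size are near the background. The widest value there, 2.88 for the heat shock gene Hspa1b, came from KO replicate 3 alone, at a CPM of 45.3 against 0.856 to 2.90 elsewhere.

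Muscle outputs of the clock gave 2 DEGs among 18 tested, where 5.35% of all genes passed. Pfkfb3, which encodes an enzyme that makes the activator of phosphofructokinase and so drives glycolysis, rose from a CPM of 105, 145 and 72.0 in WT to 291, 334 and 197 in KO. Every KO library was above every WT library, at a log2 fold change of 1.35 (standard error 0.28) and a 95% interval of the fold change of 1.64 to 3.98 (edgeR's quasi-likelihood test, unadjusted p = 0.00108, adjusted p = 0.275). The adjusted p of Pfkfb3 depended on the fit, at 6.2e-05 with DESeq2, 2.1e-11 in edgeR with no filter on low counts and 0.0285 in edgeR with the replicate number as a block, and 0.0878 to 0.478 in the other alternatives. Myod1, the myogenic regulator, fell from a CPM of 6.41, 6.69 and 8.79 to 4.15, 5.83 and 4.601, a log2 fold change of -0.59 (standard error 0.19, unadjusted p = 0.00805, adjusted p = 0.340, edgeR). Its call was lost without WT replicate 3 or KO replicate 1, at -0.43 and -0.48, while Pfkfb3 passed in all 6 fits that left out a library. Both genes stand in the study's own table of changed genes from these samples, which was known when the list was written. Neither the count of 2 nor the directions are thus independent evidence. For Myod1 the study also reported lower mRNA in KO muscle by qPCR. Over the 67 tested genes of the 5 wider clock lists, 1 passed as higher and 2 as lower in KO, against 2.21% and 3.14% of all genes. These were Pfkfb3 as higher and Myod1 and Nfil3 as lower, so the same limit holds for this count. The median log2 fold change was -0.0084.

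Among the 18 glucocorticoid and fasting genes, Cdkn1a, which encodes the cell cycle inhibitor p21, fell from a CPM of 9.41, 12.4 and 17.4 in WT to 7.45, 6.77 and 8.60 in KO. The genotypes did not overlap, and the log2 fold change was -0.78 (standard error 0.21, unadjusted p = 0.00337, adjusted p = 0.301, edgeR's quasi-likelihood test). It was the 1 DEG of this list, a share near the 5.35% of all genes, and the list's median log2 fold change was -0.18.

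**Figure D5:**
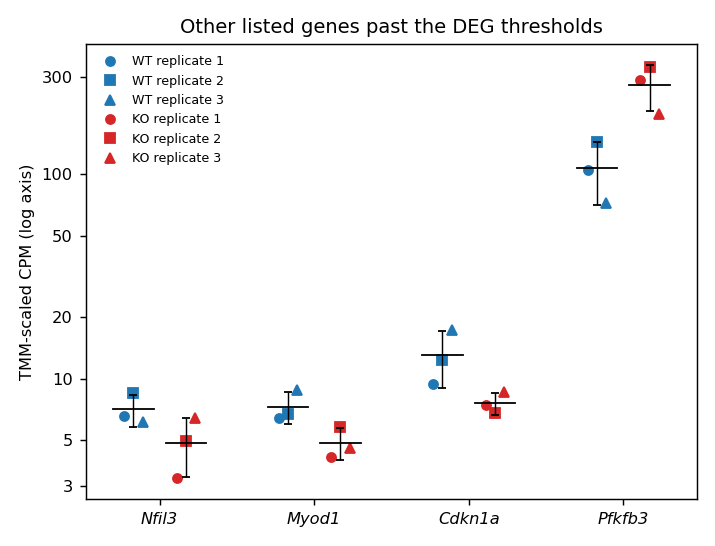
TMM-scaled CPM on a log axis of the 4 genes of the clock and glucocorticoid lists that passed the DEG thresholds, with 1 symbol per library, the mean as a line and the SD as a bar (n = 3). For Pfkfb3, Myod1 and Cdkn1a the WT (blue) and KO (red) libraries do not overlap, and for Nfil3 KO replicate 3 lies within the WT range.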

How the data were processed

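Gene expression was measured by RNA-seq in TA muscle of 3 WT and 3 KO aged mice, with genotypes and replicate numbers taken from the sample labels. Reads were aligned by the authors with Hisat2 and counted with featureCounts, and they deposited raw counts and a counted length for 55416 genes. The methods name GRCm38 and the submitters' processing notes GRCm39, so gene positions were taken from GENCODE M21 (GRCm38), matched by Ensembl identifier. Symbols were matched for 52083 genes. The WT column without a number was taken as replicate 1.

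Genes were kept with filterByExpr, scaled by TMM and tested with edgeR (version 4.0.16, R 4.3.3) by a robust quasi-likelihood fit on genotype, with Benjamini-Hochberg adjustment over 15623 genes. CPM values are TMM-scaled, and log2 CPM used a prior count of 1. Standard errors were the log2 fold change over the root of F, and intervals used the fit's degrees of freedom. The thresholds for DEGs are those of the study, which used DESeq2. Replicates of a genotype differed by more than sampling noise (chi-square per degree of freedom 19.3 to 70.5). Each group was 3 mice. The p-values from edgeR set the genotype difference against the spread between mice, estimated with information shared across genes. The steps were tested on simulated data.

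The alternatives were DESeq2 (version 1.42.0), edgeR with DESeq2 size factors, keeping every gene, requiring 10 counts per library, robust estimation off, leaving out mitochondrially encoded genes, the replicate number as a block, other thresholds, and leaving out each library. The 10 genes and all lists were chosen with earlier results of these data known. Genes named were the 10, the genes of the 2 short lists of other activators and repressors (1 is not reported here), each gene of the other lists, markers included, past the DEG thresholds, Selenow, and the 3 nearest patterns of Dbp, Nr1d1, Per3 and Clock. Sphk2, Thra and Hspa1b were named after their values were seen.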

Additional observations from a re-analysis of the deposited data

How the results depend on the processing

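The count of the 10 clock genes past the DEG thresholds was 0 in the main analysis and in the 7 alternatives of test, scaling, filter, estimation and block, and it was 0 to 1 when each library was left out, the 1 being Per3. It was 1 with an unadjusted p under 0.05 and no fold change threshold, and 0 with an absolute log2 fold change over 1 or an adjusted p under 0.05. No log2 fold change of the 10 genes changed sign under those 7 alternatives, and 6 changed sign when a library was left out. With each library left out in turn, the log2 fold change ran from -0.21 to 0.068 for Clock, from -0.020 to 0.43 for Per2, from 0.38 to 0.73 for Per3, from -0.19 to 0.19 for Cry2, from -0.090 to 0.20 for Nr1d1, from -0.075 to 0.32 for Dbp and from -0.084 to 0.089 for Tef. Leaving out WT replicate 3 gave 0.068 for Clock, -0.090 for Nr1d1 and -0.017 for Dbp, leaving out WT replicate 2 gave 0.19 for Cry2, -0.049 for Dbp and 0.089 for Tef, leaving out KO replicate 1 gave -0.020 for Per2 and -0.075 for Dbp, and leaving out KO replicate 3 gave -0.014 for Nr1d1 and 0.031 for Tef. The adjusted p of Per3 was 0.0453 with no filter on low counts, where 363 of 31780 genes had an adjusted p under 0.05, and 0.289 to 0.394 under the other 6 alternatives (edgeR and DESeq2). The count of the wider clock lists, 3, was 2 to 5 with a library left out (5 without WT replicate 2 or KO replicate 3, and 2 without KO replicate 2), 1 with an absolute log2 fold change over 1 and 0 when the adjusted p had to be under 0.05. For the whole set of tested genes the count, 836, was 1780 with no filter, 315 with an absolute log2 fold change over 1, 1545 with an unadjusted p alone and 0 with an adjusted p under 0.05 (edgeR, where DESeq2 gave 45), and that last count was 242 without KO replicate 2, 16 without KO replicate 1 and 0 to 2 when each of the other libraries was left out. The cause of these shifts was not tested. With the replicate number as a block, 890 genes and none of the 10 passed. The calls of Nfil3, Myod1, Pfkfb3 and Cdkn1a by the DEG thresholds were unchanged under the block, and those of marker genes were not compared. The adjusted p of Pfkfb3 came to 0.0285 in that fit. The study names no pairing of the samples. Deviations of same-numbered libraries correlated at 0.060, 0.044 and -0.074, against -0.14 to 0.093 for other pairs, and not every library correlated best with its own number. Whether libraries of one number share a batch was not tested.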
